A study of Mus musculus with 12 samples.

Results

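The genes described here are 40 chaperones and endoplasmic reticulum (ER) folding genes, chosen by symbol from a list of 19 cytosolic, 3 mitochondrial and 18 ER members, and every array probe that carried a member's symbol was taken. Of the 40, 38 were measured, by 66 probe IDs that gave 41 distinct features, out of 19013 genes and 30854 features in all. The cytosolic list had 18 measured genes with 19 features, the mitochondrial list 3 with 3, and the ER list 17 with 19. Hsp90ab1 and Dnajb11 have no probe under their symbols, and their expression was not analysed here. Dnajb11 was included in the promoter search. More than 1 feature was found for 3 members, Pdia6, Sel1l and Dnajb5. Hspa1a and Hspa1b are near-identical paralogs, and their probes may not separate them.

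MHC-CELFΔ mice make a nuclear dominant negative form of the CELF splicing regulators in postnatal heart muscle, from a transgene driven by the α-myosin heavy chain promoter. Total RNA of whole hearts from 3-week-old FVB/N females was hybridized to 12 Illumina mouse expression bead arrays, with 1 heart on each. There were 4 groups of 3, namely hemizygous MHC-CELFΔ-574 mice (the mild line), hemizygous MHC-CELFΔ-10 mice (the severe line), and for each line its wild type littermates, which carry no transgene. Each line descends from its own transgene insertion, so an effect of the line's insertion or litter and an effect of the transgene cannot be told apart within 1 line. The 6 wild type arrays were pooled, and each line's own littermates are given beside them.

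Molecular chaperones bind unfolded stretches of other proteins and help them to fold. In the cytosol, Hsp70 proteins work with Hsp40 co-chaperones and Hsp90, and small heat shock proteins, several of which are abundant in heart muscle, hold unfolded proteins until they can be refolded. Many of these genes are induced by heat shock factor 1, which binds heat shock elements, inverted repeats of GAA, in their promoters. In the ER, BiP (Hspa5), Grp94 (Hsp90b1), the lectin chaperones calnexin and calreticulin and the protein disulfide isomerases fold secreted and membrane proteins. When unfolded proteins build up there, the unfolded protein response induces such genes through ATF6 and the spliced form of Xbp1, and the ER stress response element, a CCAAT box at a set distance from CCACG, is the best known site.

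ER stress response elements and heat shock elements were found in promoters of different compartments, though many members held neither. In the 250 bases before the transcript start (RefSeq promoters, GRCm38.p6, both strands), the ER stress response element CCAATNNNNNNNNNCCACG was found in 7 of the 16 ER members with a promoter sequence (43.8%), in 0 of 15 cytosolic members and in 0 of 2 mitochondrial members. It was present in 0.13% of all 27025 genes with a promoter. The 7 genes were Hspa5, Hsp90b1, Calr, Canx, Pdia6, Dnajc3 and Creld2. A related element, ATTGGNCCACG (ERSE-II), was found in Herpud1 and in no other of the 33 members (0.037% of all genes). These stretches are shown because the ER genes that changed in the arrays include genes with and without such an element. Capitals mark the match, and in Calr, Creld2 and the second site of Hsp90b1 the element reads on the opposite strand.
Hspa5, chr2:34772018-34772047, plus strand: gacttcaCCAATCGGAGGCCTCCACGacgg
Hsp90b1, chr10:86705633-86705662, minus strand: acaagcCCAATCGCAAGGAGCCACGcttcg
Hsp90b1, chr10:86705528-86705557, minus strand: agagtgCGTGGTGAGGCACGATTGGtgagt
Calr, chr8:84847070-84847099, minus strand: acaacgCGTGGTCGACCCTCATTGGcccat
Canx, chr11:50325795-50325824, minus strand: tattgaCCAATCACCACGCTCCACGaagaa
Pdia6, chr12:17266485-17266514, plus strand: cagagaCCAATGAAAGGCGGCCACGgcgtg
Dnajc3, chr14:118937821-118937850, plus strand: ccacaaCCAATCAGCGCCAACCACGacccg
Creld2, chr15:88819516-88819545, plus strand: ttctCGTGGCGAGCCTCAATTGGtccacat
Herpud1, chr8:94386368-94386397, plus strand: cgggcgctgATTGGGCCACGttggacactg

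Sdf2l1, which had the largest difference of the members when the transgenic arrays of the lines were compared directly, has no full element in that window, but it holds 3 CCAAT boxes (ATTGG on the opposite strand), 2 of them in the stretch shown. A CCAAT box alone occurred in 93.8% of the 16 ER members, 60% of the 15 cytosolic members and 37.5% of all genes.
Sdf2l1, chr16:17132434-17132583, minus strand: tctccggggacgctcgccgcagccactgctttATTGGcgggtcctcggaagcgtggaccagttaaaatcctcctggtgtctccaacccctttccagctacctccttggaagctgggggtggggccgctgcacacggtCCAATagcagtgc

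Heat shock elements lay in the other compartments. A pair of facing units, GAANNTTC, was found in 6 of 15 cytosolic members (40%), in both mitochondrial members with a promoter, Hspd1 and Hspe1, and in 0 of 16 ER members, against 7.73% of all genes. The 6 cytosolic genes were Hspb1, Hspb3, Hspb6, Hspa1a, Hspa1b and Dnaja1. The longer element of 3 units, GAANNTTCNNGAA or TTCNNGAANNTTC, which holds the pair within it, was found in Hspd1 and Hspe1 and in no other member (0.514% of all genes). Those genes stand head to head and share the stretch. The unfolded protein response core TGACGTG was in Hspa5 and Hspa1l (1.85% of all genes). The stretches of Hspb1 and Hspd1 are shown because these genes changed in both lines, and those of Hspa1a and Hspa1b because their windows are the same. Capitals mark the pairs in Hspb1, Hspa1a and Hspa1b and the joined units in Hspd1.
Hspb1, chr5:135887769-135887888, plus strand: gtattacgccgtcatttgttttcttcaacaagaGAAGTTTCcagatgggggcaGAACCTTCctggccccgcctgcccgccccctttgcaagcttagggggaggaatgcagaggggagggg
Hspd1, chr1:55088053-55088082, minus strand: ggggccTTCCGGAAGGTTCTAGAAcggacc
Hspa1a, chr17:34972242-34972271, minus strand: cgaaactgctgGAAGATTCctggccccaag
Hspa1b, chr17:34959324-34959353, minus strand: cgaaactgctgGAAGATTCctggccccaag

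**Figure D1:**
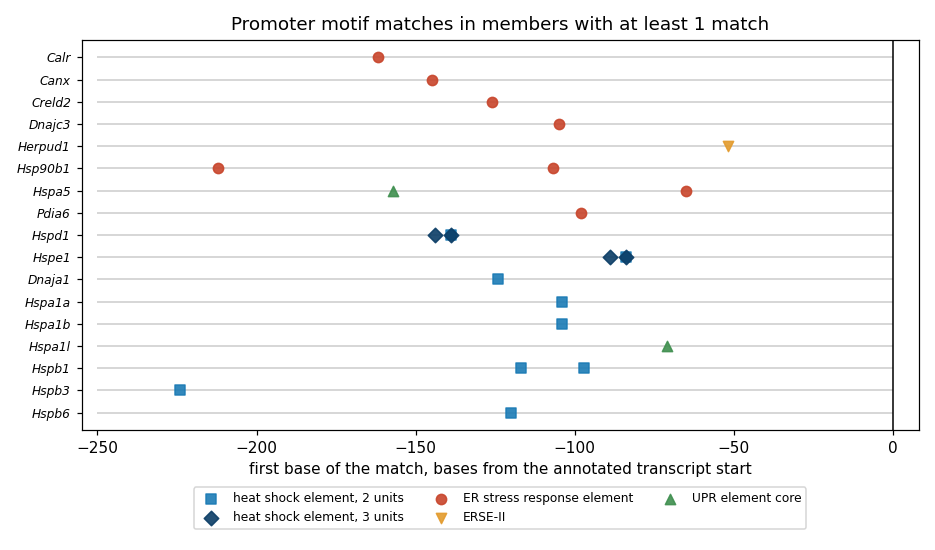
Motif matches in the promoters of members with at least 1 match. The horizontal axis gives the first base of each match in bases from the annotated transcript start, and each row is 1 gene, with ER genes at the top, then mitochondrial and cytosolic genes. The ER stress response element marks 7 ER genes, ERSE-II marks Herpud1, and heat shock elements mark cytosolic and mitochondrial genes; the unfolded protein response core marks Hspa5 and Hspa1l.

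Each feature was tested with limma on background-corrected, quantile-normalized log2 signals, and a feature counts as changed where its Benjamini-Hochberg adjusted p over all 30854 features, written q below, was under 0.05, at any fold. With a 2-fold limit added, 0 members passed in either line, where 0.269% of all features did so in mild line hearts and 0.136% in severe line hearts. The raw median intensity was 116 to 119 in the severe line, 103 to 109 in its littermates, 103 to 106 in the mild line, and 106 to 112 in its littermates. After normalization each array's median was 6.28 on the log2 scale. Features of 4 Y-linked genes, a measure of background in these females, lay from 5.85 to 6.34. The member features for Canx, Manf and Dnaja1 did not exceed that range in any array, and 7 more reached into it in some arrays, so their levels say little. The features above the median signal of all features numbered 18 of 19 in the cytosol, 3 of 3 in mitochondria and 16 of 19 in the ER.

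In the mild line calls among the cytosolic genes were rises, and calls among the mitochondrial and ER genes were falls. Of the 19 cytosolic features 5 rose and 0 fell, 2 of 3 mitochondrial features fell, and 3 of 19 ER features fell while 0 rose. Over all features, 1.62% rose and 1.93% fell, 3.55% together, and among those above the median signal 6.91% changed. The median log2 fold change was 0.18 in the cytosolic, -0.46 in the mitochondrial and -0.14 in the ER list, against 1.81e-05 over all features. In the severe line the same lists gave 1 rise in the cytosol (Hspb1), 2 falls in mitochondria and 1 rise in the ER (Sdf2l1), against 1.75% and 1.56% of all features that rose and fell (3.3% together, 6.4% above the median signal). The ER list had a median of 0.0078 there, and the cytosolic list 0.13. With each line set against its own 3 littermates, 3 cytosolic features rose, 2 mitochondrial and 1 ER feature fell in mild line hearts (2.34% of all features changed), and 1 cytosolic feature rose and 2 mitochondrial features fell in severe line hearts (2.32%). RNA of whole hearts cannot tell fewer cells of a type from less RNA per cell.

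**Figure D2:**
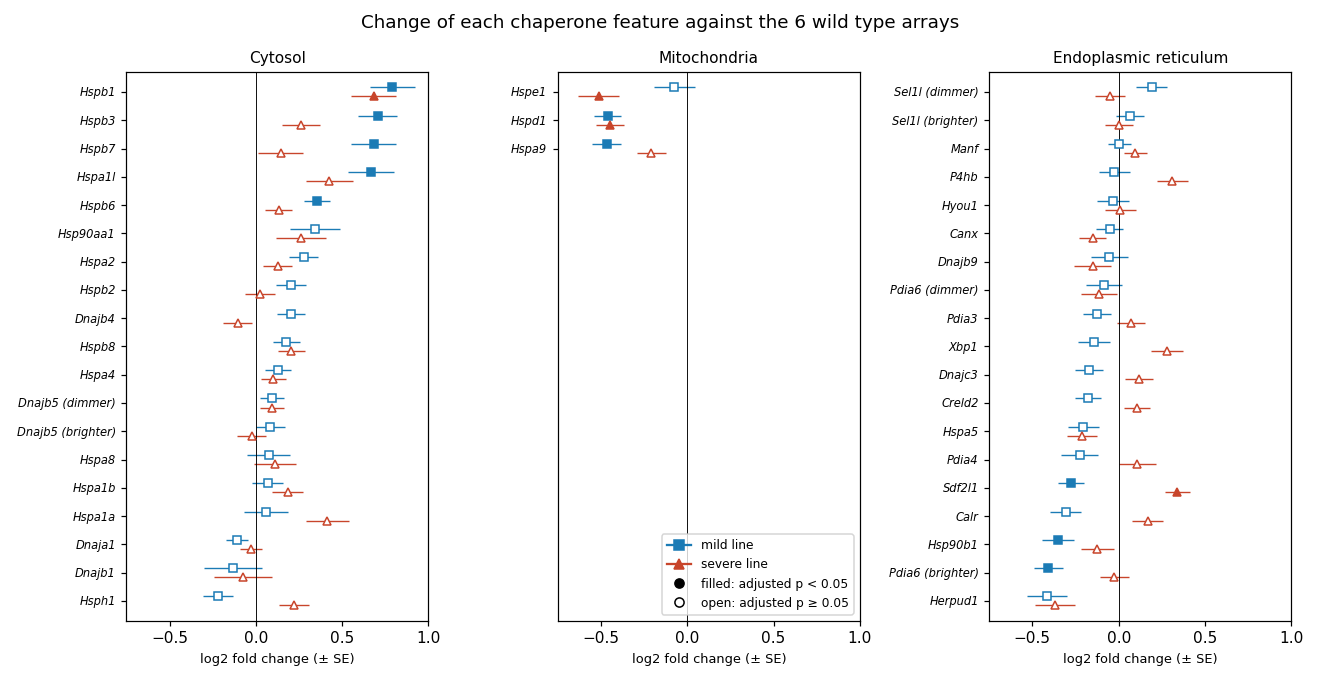
Log2 fold change of each member feature against the 6 wild type arrays (horizontal axis, ± SE), in panels for the cytosol, mitochondria and ER, with blue squares for the mild line and red triangles for the severe line. Filled symbols have an adjusted p under 0.05. In the mild line 16 of 19 cytosolic features lie above 0 and 16 of 19 ER features lie below 0; in the severe line 11 of 19 ER features lie above 0.

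The small heat shock proteins carried most of the cytosolic rise. All 6 measured genes had positive values in both lines. They lay between 0.18 and 0.79 in mild line hearts (median 0.52) and between 0.022 and 0.68 in severe line hearts (median 0.17). The lowest, Hspb2 in severe line hearts, was 0.022 with an SE of 0.087, and median scaling turned it to -0.12. Mild line hearts had 4 rises and severe line hearts 1, where 1.62% and 1.75% of all features rose. Between the lines 0 of the 6 differed with an adjusted p under 0.05 from limma, where 1.37% of all features did. Against that share, 0 of 6 says little. An unadjusted p under 0.05 was found for 3 of the 6. All of the mild line's arrays lay above all 6 wild type arrays for 8 of the 19 cytosolic features, and below them for 1, while 3.6% and 3.92% of all features did so. In the severe line the counts were 1 and 0, against 3.59% and 3.63%.

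Hspb1, also known as Hsp27, is a small heat shock protein that binds unfolded proteins and actin filaments. Its log2 signal was 11.19, 11.00 and 10.90 in mild line hearts, 10.96, 10.86 and 10.96 in severe line hearts, 10.58, 10.29 and 10.60 in the mild line's littermates, and 9.93, 10.07 and 9.98 in the severe line's littermates. Every transgenic array was above every wild type array, and the littermates of the 2 lines did not overlap either. Hspb1 rose 1.73-fold in the mild line (log2 0.79, SE 0.13, n = 3 against 6, limma q = 0.000905) and 1.61-fold in the severe line (0.68, q = 0.00454). Against its own littermates the rise was 0.54 in the mild line (q = 0.00249) and 0.93 in the severe line (q = 1.67e-05), and these did not differ by test (-0.39, q = 0.449). The littermates themselves stood 0.50 apart, with an adjusted p of 0.0563, where 0.0875% of all features passed. With median scaling the severe line's rise lost its call (0.53, q = 0.0831).

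Hspb3 and Hspb7, small heat shock proteins found mainly in muscle and heart, rose in the mild line. Hspb3 had values of 9.30, 9.40 and 9.75 in mild line hearts, 8.88, 9.11 and 9.12 in severe line hearts, and 8.45 to 8.97 over the 6 wild type arrays, with means of 8.90 ± 0.07 and 8.66 ± 0.21 (SD, n = 3) in the mild and severe littermates. The mild arrays were above all others, and the severe arrays overlapped wild type. The log2 change was 0.71 in the mild line (SE 0.11, q = 0.00064) and 0.26 in the severe line (q = 0.293). Hspb7 read 11.70, 12.07 and 12.19 in mild line hearts, 11.42, 11.59 and 11.33 in severe line hearts, 11.49, 11.37 and 11.54 in the mild littermates and 11.45, 11.09 and 10.89 in the severe littermates. Again only the mild arrays stood above all wild type arrays. Its change was 0.68 (SE 0.13, q = 0.00385) in the mild line and 0.14 (q = 0.724) in the severe line. The difference between the lines, 0.54 for Hspb7, missed the threshold (q = 0.0970), and it passed without severe littermate 3 (0.54, q = 0.0427). Against own littermates Hspb7 changed by 0.52 in the mild line (q = 0.0481) and 0.31 in the severe line (q = 0.335). The difference of these changes was 0.21 (q = 0.883). For Hspb3 the own-littermate changes were 0.59 (q = 0.00875) and 0.38 (q = 0.128), with a difference of 0.21 (q = 0.868).

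Hspb6, or Hsp20, was measured at 15.28, 15.32 and 15.32 in mild line hearts, 15.06, 15.01 and 15.18 in severe line hearts, 14.98, 14.90 and 15.14 in the mild littermates and 14.76, 15.01 and 14.90 in the severe littermates. The mild arrays were nearly level with each other and above the rest. This feature lay at percentile 99.97 of the mean signal of all features, near the top of the scale. Quantile normalization gives the same rank the same value in every array, and its part in this closeness was not tested. Hspb6 rose by 0.35 in the mild line (SE 0.077, q = 0.0110), with 0.13 in the severe line (q = 0.504). The call was lost without mild line replicate 2 (0.35, q = 0.0647) or 3 (0.35, q = 0.0597), and with own littermates (0.29, q = 0.0965). The remaining small heat shock proteins, Hspb2 (0.20) and Hspb8 (0.18), did not pass in the mild line, nor in the severe line (0.022 and 0.21). Hspb2 lies next to Cryab, the gene of αB-crystallin, the classical small heat shock protein of heart muscle, which is no member of the list. Cryab rose by 0.54 in the mild line (q = 0.00206), was 0.03 in the severe line (q = 0.942) and differed between the lines by 0.51 (q = 0.0264).

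Among the Hsp70 and Hsp110 genes, only Hspa1l passed in a comparison with wild type. Hspa1l, an Hsp70 family member known best from testis, read 7.33, 7.77 and 7.65 in mild line hearts, 7.31, 7.04 and 7.67 in severe line hearts, 6.79, 6.93 and 7.28 in the mild littermates and 6.98, 6.62 and 6.90 in the severe littermates. The mild arrays lay above wild type by a narrow margin, and the severe arrays spread widely. It rose by 0.67 in the mild line (SE 0.14, q = 0.00633), and its value in the severe line was 0.42 (q = 0.112). Without mild line replicate 2 the mild call was lost (0.57, q = 0.0763), as it was with own littermates (0.58, q = 0.0581). In the severe line a call appeared without severe line replicate 2 (0.58, q = 0.0370) or mild littermate 3 (0.50, q = 0.0397). Hspa1l and Hspa1a are neighbours in the genome.

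The stress-inducible Hsp70 genes passed the test in neither line. Hspa1a was at 6.40, 6.44 and 6.34 in mild line hearts, 6.43, 6.60 and 7.21 in severe line hearts, and 6.19 to 6.59 in wild type. Severe line replicate 3 stood apart from the rest. The Hspa1a signal exceeded the range of the Y-linked features in only 8 of the 12 arrays. The log2 change was 0.06 in the mild line (q = 0.921) and 0.41 in the severe line (q = 0.0891), the latter with a call when severe line replicate 1 was left out (0.58, q = 0.0263). Hspa1b, close to background at 6.13 to 6.60 over the 12 arrays, was highest in the same severe array. Its values were 0.07 and 0.18 in the mild and severe lines.

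Hspa8, the constitutive Hsp70 of the cytosol, ran from 11.95 to 12.59 over the 12 arrays with all 4 groups overlapping, and its changes were 0.08 (SE 0.12, q = 0.890) and 0.11 (q = 0.791). With median scaling the severe value turned to -0.077. Hspa2 was 0.28 higher in the mild line, where its arrays lay above all wild type arrays, but the test gave an adjusted p of 0.0833. Hsp90aa1, the inducible cytosolic Hsp90, had values of 0.34 and 0.26 (q = 0.305 and 0.466), with a call in the mild line when mild littermate 3 was left out (0.45, q = 0.0426). The 5 features of cytosolic Hsp40 genes, the co-chaperones Dnaja1, Dnajb1, Dnajb4 and Dnajb5, had values between -0.13 and 0.20 in mild line hearts and between -0.11 and 0.10 in severe line hearts, with 0 calls from limma and 1 and 0 features at an unadjusted p under 0.05. Hspa4, an Hsp110 protein that exchanges the nucleotide of Hsp70, was at 0.13 and 0.10.

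Of the 3 mitochondrial chaperones, Hspd1 fell in both lines, Hspa9 in the mild line and Hspe1 in the severe line. Hspd1 (Hsp60) and Hspe1 (Hsp10) form the folding chamber of the matrix, and Hspa9 is the matrix Hsp70 that draws proteins in through the inner membrane. Hspd1 was at 10.45, 10.45 and 10.53 in mild line hearts, 10.35, 10.53 and 10.60 in severe line hearts, 11.15, 10.85 and 10.97 in the mild littermates and 10.94, 10.94 and 10.79 in the severe littermates. No transgenic array reached the lowest wild type array. Hspd1 fell to 0.726 of wild type in the mild line (log2 -0.46, SE 0.079, q = 0.00137) and to 0.733 in the severe line (-0.45, q = 0.00248). Own littermates gave -0.51 (q = 0.00275) and -0.40 (q = 0.0236).

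Hspa9 read 12.26, 12.56 and 12.46 in mild line hearts, 12.76, 12.66 and 12.64 in severe line hearts, 12.85, 12.77 and 12.71 in the mild littermates and 13.01, 13.05 and 12.97 in the severe littermates. Both lines lay below their own littermates, and only the mild line below all 6 wild type arrays. The change was -0.47 (SE 0.085, q = 0.00236) in the mild line and -0.21 (q = 0.258) in the severe line. Against own littermates it was -0.35 (q = 0.0287) and -0.32 (q = 0.0507), with a difference of -0.03 (q = 0.983). With median scaling the severe value became -0.37 (q = 0.0233).

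Hspe1 had the other pattern. It read 9.45, 9.11 and 9.69 in mild line hearts, 8.73, 9.01 and 9.21 in severe line hearts, 9.51, 9.56 and 9.31 in the mild littermates and 9.61, 9.64 and 9.32 in the severe littermates. All severe arrays were below wild type, and the mild arrays were on both sides. Hspe1 fell by 0.51 in the severe line (SE 0.12, q = 0.0200), with -0.08 in the mild line (q = 0.882) and a difference between the lines of 0.44 (q = 0.149). Without severe line replicate 1 the call was lost (-0.38, q = 0.200), as without replicate 2 (-0.53, q = 0.0556) or with a background offset of 16 (-0.54, q = 0.0832). Own littermates gave -0.54 (q = 0.0487), and -0.54 (q = 0.121) with the replicate number as a block.

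Of 8 other mitochondrial folding and protease genes, 3 fell in mild line hearts, 2 fell in severe line hearts and 0 rose, where 1.93% and 1.56% of all features fell. Clpx, the unfoldase of the ClpXP protease, fell by 0.53 (q = 0.000844) and 0.51 (q = 0.00156). Dnaja3, the Hsp40 of the matrix, fell by 0.43 (q = 0.000546) and 0.30 (q = 0.0142), and Timm44, which tethers Hspa9 at the import channel, by 0.35 in the mild line (q = 0.00392).

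**Figure D3:**
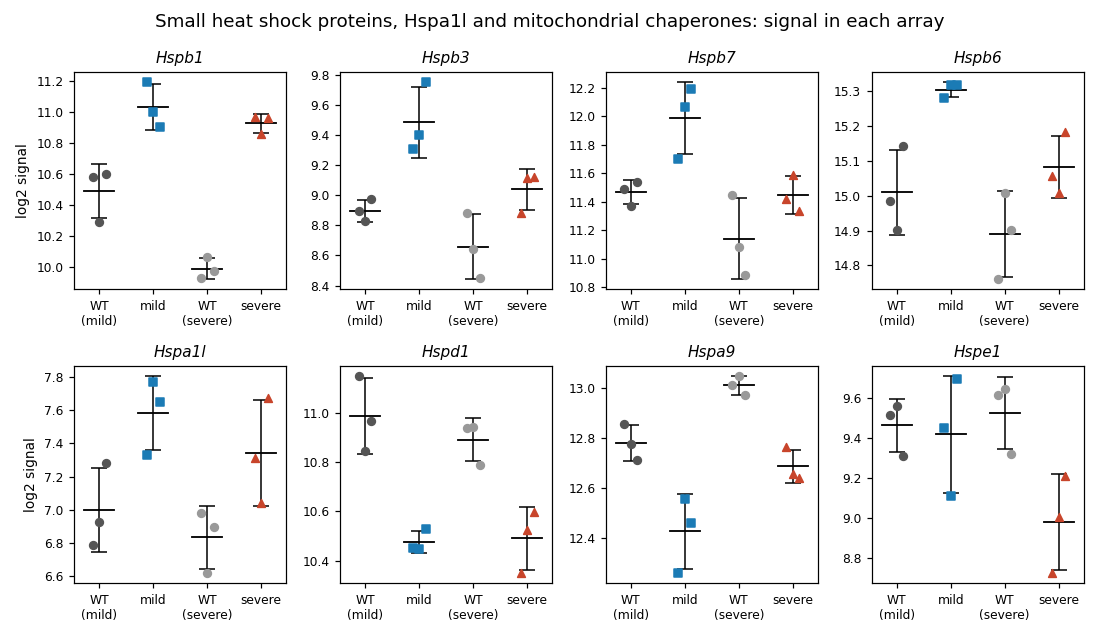
Log2 signal of 8 cytosolic and mitochondrial members in each array (vertical axis), with 3 points per group, for wild type littermates (grey circles), the mild line (blue squares) and the severe line (red triangles). Lines give the mean and bars the SD of 3 arrays. Hspb1 was above and Hspd1 below wild type in all 6 transgenic arrays, whereas Hspb3, Hspb7 and Hspb6 were above all wild type arrays in the mild line only.

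In the ER the direction in the mild line was mostly down. Of 19 features, 16 had negative values, and all of the mild line's arrays lay below all wild type arrays for 5 (Pdia6, Hsp90b1, Sdf2l1, Calr and Herpud1) and above them for 0, where 3.92% and 3.6% of all features did so. The 7 features of calnexin, calreticulin and disulfide isomerase genes were all negative, as were the 6 of BiP, Grp94 and their partners. Some of these signs say little. Canx did not exceed the range of the Y-linked features in any array, and Hyou1 and Hspa5 lay in that range in some arrays. The values of P4hb (-0.02) and Hyou1 (-0.03) were small. By test, 3 features fell. In the severe line 1 of the 19 features was wholly above wild type (Sdf2l1) and 1 wholly below (Herpud1), close to the 3.59% and 3.63% of all features.

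Pdia6, a protein disulfide isomerase of the ER lumen with an ER stress response element in its promoter, read 6.97, 6.94 and 6.98 in the mild line at its brighter feature, 7.34, 7.42 and 7.28 in the severe line, 7.28, 7.20 and 7.42 in the mild littermates and 7.24, 7.62 and 7.47 in the severe littermates. The mild arrays were tightly grouped below all others. The fall was 0.41 on the log2 scale (log2 -0.41, SE 0.084, q = 0.00718), and the severe line's value was -0.03 (q = 0.943). Its dimmer feature did not pass (-0.08, q = 0.843), and the average of both gave -0.25 (q = 0.122). Own littermates gave -0.34 (q = 0.0723), and without mild line replicate 2 the adjusted p was 0.0530 (-0.40). The lines differed by -0.38 (q = 0.0604), which passed without severe littermate 2 (-0.38, q = 0.0250). As a difference of own-littermate changes it was -0.24 (q = 0.763). At the dimmer feature the lines differed by 0.03 (q = 0.957).

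Hsp90b1, or Grp94, the Hsp90 of the ER, has 2 ER stress response elements in its promoter. It was at 10.61, 10.60 and 10.70 in mild line hearts, 10.90, 10.85 and 10.84 in severe line hearts, 10.85, 11.01 and 10.88 in the mild littermates and 11.15, 11.29 and 10.76 in the severe littermates. The mild arrays were below all wild type arrays, with severe littermate 3 the nearest. The change of -0.35 (SE 0.094, q = 0.0463) was close to the threshold, and the severe line's was -0.12 (q = 0.651). The call held when mild littermate 1 or 3 or severe littermate 3 was left out, and was lost without any of the 9 other arrays (adjusted p from 0.0545 to 0.197), and with own littermates (-0.28, q = 0.287).

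Sdf2l1, an ER lumen protein found in complexes with BiP, moved in opposite directions against the pooled wild type arrays. It read 7.02, 7.09 and 6.84 in mild line hearts, 7.61, 7.59 and 7.60 in severe line hearts, 7.20, 7.15 and 7.24 in the mild littermates and 7.23, 7.36 and 7.39 in the severe littermates. The mild arrays lay below and the severe arrays above all 6 wild type arrays. Sdf2l1 fell by 0.28 in the mild line (SE 0.074, q = 0.0428) and rose by 0.34 in the severe line (q = 0.0125). Against own littermates neither call held (-0.21, q = 0.288, and 0.27, q = 0.10), and both were also lost with median scaling (-0.29, q = 0.0592, and 0.26, q = 0.0870) and with a background offset of 16 (-0.37, q = 0.113, and 0.42, q = 0.0644). The lines differed by -0.62 (SE 0.085, q = 0.000473), where 1.37% of all features differed, 0.596% higher and 0.771% lower in the mild line (2.65% of those above the median signal). Taken as a difference of own-littermate changes it was -0.48, with an adjusted p of 0.114, where 0.266% of all features passed. The mild call was lost without any of 11 of the 12 arrays (adjusted p from 0.0503 to 0.305), mild littermate 2 being the exception. The severe call was lost without severe line replicate 1 (0.33, q = 0.0716) or 3 (0.34, q = 0.0524). The difference between the lines kept its call without each array.

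Calr, the gene of calreticulin, a calcium-binding lectin chaperone, read 7.48, 7.61 and 7.57 in mild line hearts, 8.17, 7.94 and 7.98 in severe line hearts, 7.68, 7.78 and 7.86 in the mild littermates and 7.73, 8.10 and 8.01 in the severe littermates. The mild arrays were below all others. Neither comparison with wild type passed (-0.31, q = 0.0723, and 0.17, q = 0.445), although the first did without mild littermate 1 (-0.34, q = 0.0408). The lines differed by -0.47 (SE 0.10, q = 0.0248). That call was lost without severe line replicate 1 (-0.41, q = 0.149) or 3 (-0.50, q = 0.0528) or any mild line array (q = 0.107, 0.0586 and 0.0841 for replicates 1 to 3), and between own-littermate changes it was -0.30 (q = 0.666).

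The third difference between the lines was in the cytosol. Hsph1, or Hsp105, an Hsp110 that exchanges the nucleotide of Hsp70, read 9.28, 9.25 and 9.14 in mild line hearts, 9.61, 9.56 and 9.80 in severe line hearts, 9.47, 9.36 and 9.72 in the mild littermates and 9.27, 9.43 and 9.40 in the severe littermates. Each line was apart from its own littermates, lower in the mild and higher in the severe line. The values against wild type were -0.22 (q = 0.268) and 0.22 (q = 0.245), and the lines differed by -0.44 (SE 0.10, q = 0.0374). The call was lost without severe line replicate 1 (-0.46, q = 0.0953) or 3 (-0.36, q = 0.139) or any mild line array (q = 0.0772, 0.0883 and 0.167). The difference of own-littermate changes was -0.59 (q = 0.107).

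In the ER as a whole, 9 of 19 features had all mild arrays below all severe arrays and 1 had them above, whereas 9.36% and 8.78% of all features did so. In the cytosol the counts were 1 below and 4 above. The ER median of the difference was -0.20 against -0.00029 over all features. For the difference of own-littermate changes, 0 of 41 member features had an adjusted p under 0.05 from limma, where 0.266% of all features did. At an unadjusted p under 0.05 there were 7 of the 41.

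Xbp1, the transcription factor whose spliced form drives ER genes, was at 11.12, 11.16 and 11.13 in mild line hearts, 11.62, 11.48 and 11.57 in severe line hearts, 11.20, 11.23 and 11.60 in the mild littermates and 11.04, 11.25 and 11.36 in the severe littermates. The severe arrays were above their own littermates, and mild littermate 3 was as high as they were. Its changes were -0.14 (q = 0.604) and 0.28 (q = 0.126), and the lines differed by -0.42 (q = 0.0559). Without mild littermate 3 both the severe line's rise (0.35, q = 0.0147) and the difference (-0.42, q = 0.0139) passed, and the difference also passed without severe littermate 1 (-0.42, q = 0.0334). The array does not measure the spliced form.

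Herpud1, an ER membrane protein that serves ER-associated degradation and the member with the ERSE-II site, read 12.17, 11.90 and 12.03 in mild line hearts, 11.92, 12.11 and 12.20 in severe line hearts, 12.89, 12.52 and 12.31 in the mild littermates and 12.23, 12.34 and 12.39 in the severe littermates. All 6 transgenic arrays lay below all 6 wild type arrays. The test gave -0.42 (SE 0.11, q = 0.0535) and -0.37 (q = 0.101), short of the threshold in both lines. Against own littermates the mild line's value was -0.54 (q = 0.0188) and the severe line's -0.24 (q = 0.437). The mild line also passed without mild littermate 1 (-0.33, q = 0.0437) or 3 (-0.45, q = 0.0479), or severe littermate 1 (-0.46, q = 0.0313). The severe line passed with median scaling (-0.55, q = 0.0390).

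Hspa5 (BiP), the central Hsp70 of the ER, had a feature of low signal, at 6.38, 6.18 and 6.38 in mild line hearts, 6.24, 6.41 and 6.26 in severe line hearts and 6.31 to 6.74 in wild type. Several arrays fell in the range of the Y-linked features. Its values were -0.20 (q = 0.326) and -0.21 (q = 0.267). P4hb, the classical protein disulfide isomerase and a subunit of collagen prolyl 4-hydroxylase, read 11.94, 11.93 and 11.68 in the severe line against 11.36 to 11.71 in wild type and 11.35 to 11.61 in the mild line. The severe value of 0.31 had an adjusted p of 0.0671, and it passed without severe littermate 1 (0.34, q = 0.0411) or severe line replicate 3 (0.40, q = 0.0382). In the mild line it was -0.02. The mild littermates (11.36 to 11.48) lay below the severe littermates (11.59 to 11.71). Against own littermates P4hb changed by 0.20 in the severe line (q = 0.352) and 0.08 in the mild line (q = 0.876). The other ER members, Pdia3, Pdia4, Canx, Dnajb9, Dnajc3, Hyou1, Creld2, Manf and Sel1l, passed no comparison, with values between -0.23 and 0.19 in mild line hearts and between -0.15 and 0.12 in severe line hearts.

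**Figure D4:**
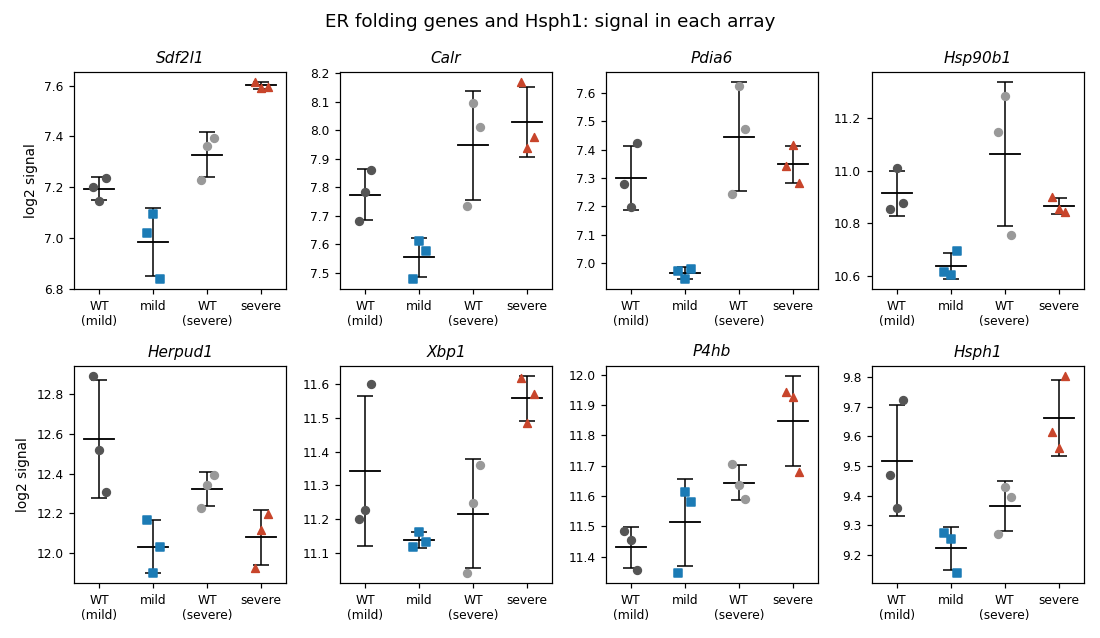
Log2 signal of 7 ER members and Hsph1 in each array (vertical axis), with 3 points per group, for wild type littermates (grey circles), the mild line (blue squares) and the severe line (red triangles). Lines give the mean and bars the SD of 3 arrays, and Pdia6 is shown by its brighter feature. Sdf2l1 lay below wild type in the mild line and above it in the severe line, and all mild arrays of Calr, Pdia6 and Hsp90b1 were below the arrays of every other group.

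Other ER folding genes that are no members rose where they were called. Among 18 measured, 2 rose in mild line hearts, 3 rose in severe line hearts and 0 fell, while 1.62% and 1.75% of all features rose. P4ha1, the catalytic subunit of prolyl 4-hydroxylase, rose in both (0.36, q = 0.00926, and 0.30, q = 0.0381). Sil1, the nucleotide exchange factor of BiP, rose in the mild line (0.30, q = 0.00902). Txndc5, a disulfide isomerase, rose in the severe line (0.52, q = 0.00116), as did Serpinh1, the collagen chaperone Hsp47 (0.31, q = 0.0304), which also differed between the lines (-0.38, q = 0.0403).

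The 11 measured genes of ER-associated degradation and the 8 sensors and proteases of the unfolded protein response had 0 calls from limma in either line. Over all features 3.55% were called in the mild line, 3.3% in the severe line and 1.37% between the lines. Against these shares, few or no calls in lists this short say little. At an unadjusted p under 0.05 there were 1 and 2 of the first group and 1 and 1 of the second in the mild and severe lines. Among 27 genes of translocation and glycosylation, Spcs3, a signal peptidase subunit, was the only one called, 0.37 higher in the severe line (q = 0.0148) and different between the lines (-0.47, q = 0.0154). An unadjusted p under 0.05 from limma was found for 1 of the 27 in the mild line, 9 in the severe line and 13 between the lines. The median difference between the lines over these 27 genes was -0.18. The 8 subunits of the cytosolic chaperonin had 0 calls, with 1 at an unadjusted p under 0.05 in each line. Of 27 measured cytosolic co-chaperones and heat shock factors, Fkbp4, an Hsp90 co-chaperone, fell in both lines (by 0.69, q = 2.03e-05, and 0.52, q = 0.000638), Dnajc7 fell in the mild line (by 0.38, q = 0.0217), and Cryab rose there.

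Markers of heart muscle, fibroblasts and endothelium were read beside the members, and whether they changed together was not tested. All 5 measured heart muscle markers were well above the array median in every array, with Ryr2, the calcium release channel, lower in both lines. The summed linear signal of 6 fibroblast markers ran from 9943 to 10489 in the severe line, 7928 to 8654 in its littermates, 8809 to 9557 in the mild littermates and 8910 to 11834 in the mild line. Col1a1, a collagen gene, was the only one called (0.48 higher in the severe line, q = 0.0114). The part of fibroblasts in the severe line's values for P4hb, Serpinh1, P4ha1, Txndc5 and Sdf2l1 was not tested. The sum of 5 endothelial markers ran from 1997 to 2134 in the severe line, below its littermates (2227 to 2443) and the mild littermates (2225 to 2316), and from 2107 to 2247 in the mild line. Of these markers 0 were called by limma in either line, and 0 had an unadjusted p under 0.05. Their part in the severe line's values was not tested.

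Severe littermate 1 held a pancreas transcript, Ins2, at 11.64, with 7.27 and 8.25 in severe littermates 2 and 3, 7.14 in severe line replicate 1 and at most 6.34 in the other 8 arrays. Of the 19 ER features, 9 were lowest, 6 in the middle and 4 highest in that array among the 3 severe littermates. Sdf2l1, Calr and the brighter feature of Pdia6 were among the lowest, and Pdia4, P4hb, Dnajb9 and the brighter feature of Sel1l were the highest. Leaving that array out gave 5 cytosolic and 2 ER calls for the mild line, 1 and 2 for the severe line, and 1 and 3 between the lines. The 2 plasma cell and 4 thymus markers measured stayed at or under 6.70 in every array.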

How the data were processed

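Total RNA from 12 hearts was measured on bead arrays, 3 per group. Deposited were the authors' raw bead summary intensity values, 1 per probe, not normalized and without detection p-values, and the authors' log2 table after background correction and quantile normalization. Ranks within an array were the same in both. The submitters' processing notes name GenomeStudio and limma, with versions not given in the sources used here. Whether background was subtracted on export, and the chip each array lay on, are not given there either.

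Of 45281 probe IDs, 34885 had 1 symbol in the platform annotation, 18 several and 10378 none. IDs with identical values were merged into 30854 features, 8966 with over 1 ID, and 6 lines without an ID were left out. Intensities were corrected by the normal-exponential model (offset 50), then quantile normalized on a log2 scale in R 4.3.3 with limma 3.58.1. Group means of wild type (n = 6), mild and severe line (n = 3 each) were fitted with empirical Bayes variances. A second fit with 4 groups gave each line against its own littermates, the difference of those changes and the littermates against each other. Fits were tested on simulated data. Precision is limited by the number of arrays.

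The members, lists and tests were chosen with earlier results of these data known. Named in full were members with an adjusted p under 0.05 in either line or between the lines, and Hspa5, Hsp90b1, Calr, Xbp1, Hspa8, Hspa1a, Hspa1b, Hspb1, Hspd1, Hspe1 and Hspa9 whatever their change. Herpud1, P4hb, Hspa2, Hsp90aa1 and Hspa4 were added after their values were seen. Of other lists, up to 4 called genes each were named, from the brightest feature of a gene. Promoters were searched for exact motif matches on both strands, for the 33 members with a RefSeq promoter. The alternatives were the background correction and its offset, median scaling, a signal filter, the authors' table, array weights, trend and robust variances, own littermates with and without a replicate block, fits of 2 groups, averaged features, the methods' fold limit and leaving out each array.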

Additional observations from a re-analysis of the deposited data

Results flagged for a closer look

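The mild and severe lines stood apart, by a test of the difference itself, for 3 of 41 member features, where 1.37% of all features did so. Sdf2l1, of the ER lumen, was lower in the mild than in the severe line by 0.62 on the log2 scale (value -0.62, limma adjusted p = 0.000473, mild arrays below severe arrays in 3 of 3). For Calr the difference was -0.47 (adjusted p = 0.0248) and for Hsph1, of the cytosol, -0.44 (adjusted p = 0.0374), each with all 3 mild arrays below all 3 severe arrays. Each value compares the transgenic arrays of the lines directly. With each line set against its own littermates, the differences were -0.48 (adjusted p = 0.114), -0.30 (adjusted p = 0.666) and -0.59 (adjusted p = 0.107). None passed there, where 0.266% of all features did. The Calr and Hsph1 calls were lost with median scaling and with a background offset of 16. Both were also lost without severe line replicate 1 or 3, or without any single mild line array. Among the 6 wild type arrays, 0 of 41 member features had an array far from the rest by Dixon's criterion (0.625 of the range).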

How the results depend on the processing

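Calls were compared under 23 alternatives, with the methods' 2-fold limit left aside. Of the 10 member features called in the mild line, 4 kept their call in every one (Hspb1, Hspb3, Hspb7 and Hspd1). So did 0 of 4 in the severe line and 0 of 3 between the lines. Of those not called, 27 of 31, 31 of 37 and 35 of 38 were called in none. Over features, comparisons and alternatives, 2685 values kept direction and call, 77 lost a call, 31 gained one and 24 changed direction, none of the last called in either fit. A change of sign within 1 SD without a call was counted as kept.

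The 5 cytosolic calls in the mild line became 3 with own littermates, and 0 under the methods' 2-fold limit, as did every other count. The 3 ER calls there became 1, Pdia6, with an offset of 16, median scaling, trend and robust variances, and a fit of 2 groups. With own littermates, with or without the block, all 3 were lost and the 1 call was Herpud1. In the severe line the cytosolic count of 1 became 0 with median scaling and 2 with the block. The ER count of 1 there became 0 with an offset of 16, own littermates or the block, and 2 with the signal filter. With median scaling that count stayed at 1, but the call was the fall of Herpud1 in place of the rise of Sdf2l1. Between the lines the cytosolic count of 1 became 0 with an offset of 16, median scaling, own littermates or the block, and 2 in a fit of 2 groups. The ER count of 2 became 1 with an offset of 16 or median scaling, 0 with own littermates or the block, and 4 with the signal filter, array weights or a fit of 2 groups. Leaving out each array gave 3 to 6, 1 to 2 and 0 to 2 cytosolic calls (mild line, severe line, between the lines) and 0 to 4, 0 to 2 and 1 to 3 ER calls. Between the littermates the count of 0 became 1, Hspb1, without background correction (0.49, adjusted p = 0.0462), in the authors' table (0.47, adjusted p = 0.0441) and without mild line replicate 1 (0.50, adjusted p = 0.0454). Where no other reason is given, the cause was not tested.

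Median scaling shifted the median of the brightest features by -0.11 in the severe line. It turned the severe line's values of Hspa8 (-0.077), Hspb2 (-0.12), Pdia3 (-0.11) and Creld2 (-0.0020), and the difference between the lines of Hspa8 (0.15) and Hspb8 (0.16). With own littermates, with or without the block, the severe value of Dnajb9 turned (0.00064), as did the difference between the lines of Hspb1 (-0.39), Hsp90aa1 (-0.17), Hspa5 (-0.16), Dnajb9 (-0.21), Canx (-0.093), Hyou1 (0.094) and Sel1l (-0.16). Dnajb4 turned in the severe line without replicate 1 (0.011), and the dimmer Pdia6 feature between the lines when averaged (-0.18).

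Samples with the same replicate number did not deviate together (correlations of 0.0562, -0.00403 and -0.0322 in the mild and -0.0954, -0.244 and 0.00246 in the severe line), so the numbers are taken as names. With the replicate number as a block, calls were lost for Hspd1 (-0.40, adjusted p = 0.0634) and Hspe1 (-0.54, adjusted p = 0.121) in the severe line and Hspa9 in the mild line (-0.35, adjusted p = 0.0844), and there were 4 cytosolic and 1 ER calls in the mild line. Dim features, Canx, Manf and Dnaja1 among them, lay within the background range and limit what these arrays can show.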
